A study of Homo sapiens with 3 samples.

Results

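The genes described here were 9 transcriptional targets of the tumor suppressor p53, *CDKN1A*, *MDM2*, *GDF15*, *TP53I3*, *SESN1*, *FDXR*, *ZMAT3*, *TP53INP1* and *BTG2*, taken by name from the 21612 genes named on the array. All 9 had a probe, 14 probes in all, and 8 genes had at least 1 probe well above background on all 3 arrays. HCT116 is an established line of human colon cancer. The cells were treated for 48 h with 10 nM of control siRNA, siRNA #7 or siRNA #8, the last pair directed against *HOXA5* short RNA, a non-coding transcript of the *HOXA6-HOXA5* locus, and 400 ng of total RNA was labeled with Cy3 and hybridized to 1 whole-genome array per condition. The study asked what this RNA does in cell growth, and the comparison gives transcript levels of p53 growth-arrest targets under the same treatments. Which of the negative control siRNAs named in the methods was used for the control array is not given in the labels. The siRNA-treated groups are short-term transfections of 1 cell line, and 1 array per condition leaves every difference below without a replicate check.

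p53 is a transcription factor that is kept scarce in unstressed cells by the ubiquitin ligase MDM2. After DNA damage, nucleolar stress or other insults it accumulates, binds paired half-sites in DNA and activates genes for growth arrest, DNA repair, metabolism and apoptosis. p21, the product of *CDKN1A*, is the classical mediator of the arrest. It inhibits cyclin-dependent kinases, keeps the DREAM repressor complex on cell-cycle genes and thereby lowers their transcripts. *MDM2* is itself activated by p53, which closes a negative feedback loop. Much of p53 activity is set by the stability and modification of the protein, which an array of RNA does not measure.

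The sequences of the siRNAs are shown because both compared treatments rest on nearly the same target site. Capitals mark the run of 17 bases that siRNA #7 and siRNA #8 share, of 21 bases in each, written 5′ to 3′ as listed by the study.
siRNA #7: gagaAACUGAAAGACAACAUA
siRNA #8: AACUGAAAGACAACAUAggcg
The run lies at positions 5 to 21 of siRNA #7 and at positions 1 to 17 of siRNA #8, so the sites are shifted by 4 bases. The *HOXA5* probe, the check of the target that the array offers, read 84.9 under control siRNA and lower intensities, 52.6 and 58.5, under siRNA #7 and siRNA #8. Scaled, these were log2 ratios of -0.35 and -0.22 (spot-to-spot SDs 0.25 and 0.26), so neither ratio reached 2 SDs. Probe sequences were not used here, so the signal cannot be assigned to *HOXA5* short RNA or to *HOXA5* mRNA.

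Matches to the p53 recognition sequence near the members are shown next, since p53 acts on its targets through such sequences. A match describes letters and not binding. RefSeq promoter windows of GRCh38.p14, from 250 bases before to 50 after each transcript start, were given for 8 of the 9 genes in 15 windows. *TP53INP1* had no entry. The p53 half-site without mismatch, which reads as itself on both strands, was present in 2 of the 15 windows and in 6.63% of all 35116 windows. The full site, a pair of adjoining half-sites without spacer and with at most 3 mismatches, was searched after the half-site result was seen. It was present in 5 of the 15 windows and in 5.2% of all windows. These 5 windows are not separate sites, because *MDM2* windows that almost coincide hold the same stretch. Counted by gene, 4 of the 8 had a match, and the shares were not tested. The exact half-sites, in *SESN1* and *FDXR*, lie within full-site matches. The matches lay in windows of *SESN1*, *MDM2*, *FDXR* and *GDF15*, and capitals mark them in the stretches of the first 3.
*MDM2*, chr12:68808913-68808990, plus strand: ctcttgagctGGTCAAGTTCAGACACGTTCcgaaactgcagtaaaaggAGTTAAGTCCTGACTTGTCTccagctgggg
*SESN1*, chr6:109009008-109009047, minus strand: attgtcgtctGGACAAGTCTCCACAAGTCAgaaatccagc
*FDXR*, chr17:74872986-74873025, minus strand: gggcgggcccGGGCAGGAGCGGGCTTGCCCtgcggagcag
The *MDM2* stretch precedes the downstream start of the gene and holds 2 matches, with 2 and 3 mismatches. In *SESN1* the first half-site of the pair was the exact one, and in *FDXR* the second. The windows of *CDKN1A*, *TP53I3*, *ZMAT3* and *BTG2* held no match, which says only that these letters are not in the 300 bases given. The match in *GDF15* started at 28 after its transcript start.

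The members did not move as 1 group, and the siRNAs differed in which members stood highest. Relative to control siRNA, *TP53I3*, *CDKN1A*, *FDXR* and *GDF15* were higher with siRNA #7, by 1.23, 0.72, 0.57 and 0.41 on the log2 scale, and *MDM2* was lower with a log2 ratio of -0.68. With siRNA #8 those 5 genes had log2 ratios between -0.27 and 0.18, while *BTG2* was higher by 1.26 and *TP53INP1* by 0.55. Here a level is the log2 intensity relative to the 75th percentile of its array, a log2 ratio is a difference of levels, and the SD given with it is the spot-to-spot SD from probes printed 10 times. That SD covers spotting and scanning of 1 array and not the variation between cultures. As RNA came from whole cultures, a lower level in every cell and a smaller share of expressing cells cannot be told apart.

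**Figure D1:**
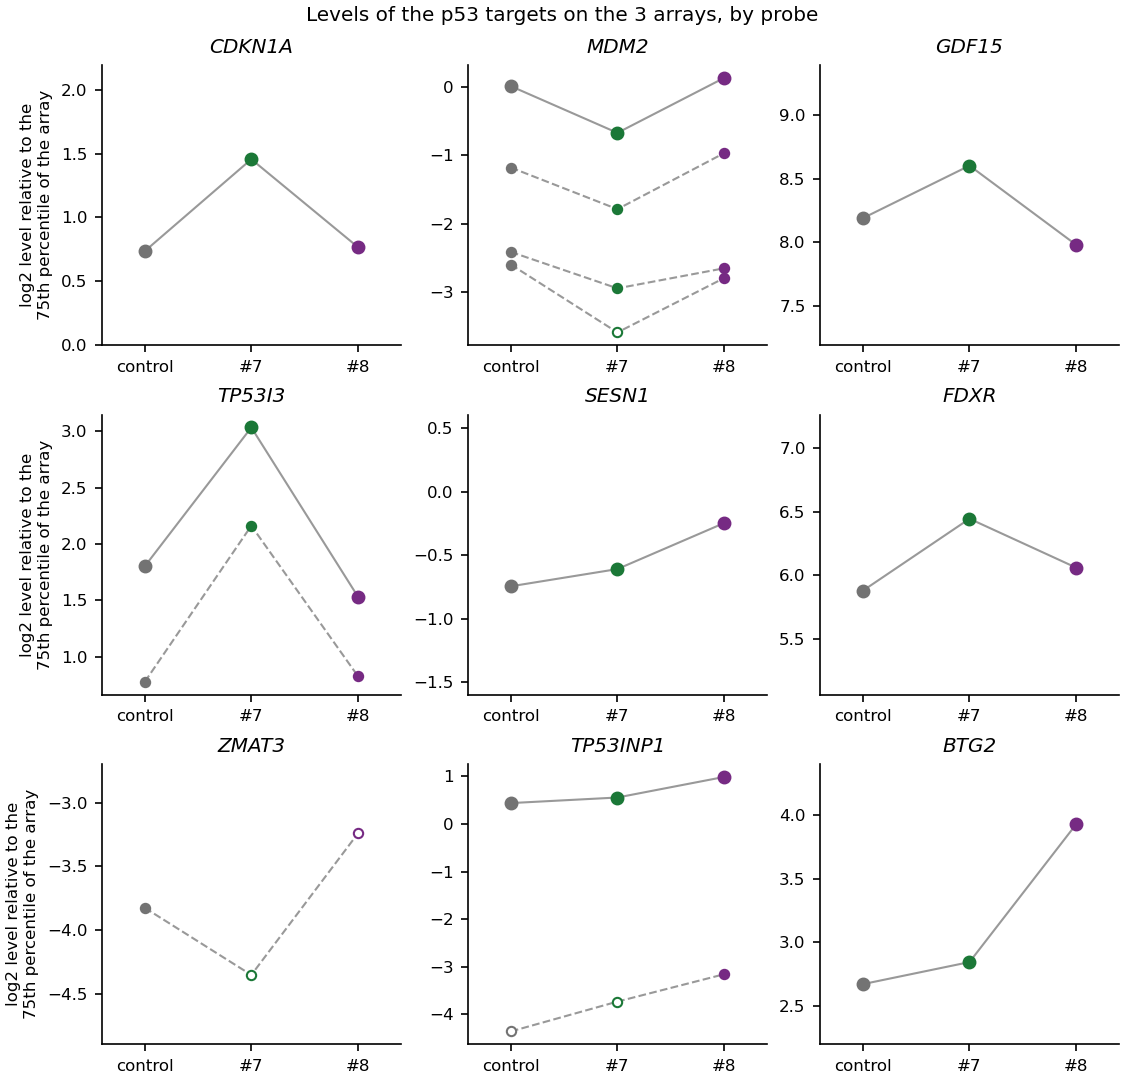
Level of every probe of the 9 p53 targets on the control siRNA, siRNA #7 and siRNA #8 arrays, as log2 intensity relative to the 75th percentile of the array. Large points joined by solid lines are the probe used for the gene, small points joined by dashed lines are its other probes, open points were well above background on less than 50% of their spots, and levels may be compared along a line but not between lines. *TP53I3*, *CDKN1A*, *GDF15* and *FDXR* peak at siRNA #7, *BTG2* peaks at siRNA #8, and all 4 *MDM2* probes are lowest at siRNA #7.

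*CDKN1A*, which encodes the cyclin-dependent kinase inhibitor p21, had 1 probe on 1 spot. Its intensities were 144, 188 and 119 under control siRNA, siRNA #7 and siRNA #8. The arrays also differed in overall brightness, and after scaling the level with siRNA #7 stood above both others, which lay together. Relative to control siRNA it was 1.65-fold higher with siRNA #7, a log2 ratio of 0.72 (spot-to-spot SD 0.16). With siRNA #8 the log2 ratio was 0.03 (spot-to-spot SD 0.18), which is within 1 SD of no difference. Set against siRNA #7, the level with siRNA #8 was 1.61-fold lower, with a log2 ratio of -0.69 (spot-to-spot SD 0.17). The median log2 deviation of the 20 neighbouring spots on the array was -0.13 with siRNA #7 and -0.09 with siRNA #8, so the surroundings of the spot were not higher with siRNA #7. The sign of the small ratio with siRNA #8 turned when the arrays were scaled to their median or to the spike-in controls.

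*TP53I3*, an oxidoreductase linked to the generation of reactive oxygen species, gave the largest log2 ratio of the members with siRNA #7. On the control siRNA, siRNA #7 and siRNA #8 arrays the probe used read 303, 561 and 202. The array with siRNA #7 was the brightest for this probe although it was the dimmest at the 75th percentile. Its log2 ratio was 1.23 with siRNA #7 (spot-to-spot SD 0.16), a 2.35-fold higher level, and -0.27 with siRNA #8 (spot-to-spot SD 0.18). A second probe of the gene had intensities of 149, 306 and 124 in the same order, and log2 ratios of 1.39 and 0.05. Both probes thus placed siRNA #7 above the other arrays and disagreed on the sign of the small ratio with siRNA #8. With siRNA #8 the gene was 2.83-fold lower than with siRNA #7, a log2 ratio of -1.50 by the probe used and of -1.33 by the second probe.

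*FDXR* and *GDF15* were also highest with siRNA #7, with smaller ratios, while the lowest array was control siRNA for *FDXR* and siRNA #8 for *GDF15*. *FDXR*, the mitochondrial ferredoxin reductase, had intensities of 5110, 5959 and 4656 on the control siRNA, siRNA #7 and siRNA #8 arrays. Its log2 ratio was 0.57 with siRNA #7 (spot-to-spot SD 0.14) and 0.18 with siRNA #8 (spot-to-spot SD 0.15). The ratio with siRNA #7 was past 2 SDs and that with siRNA #8 was not. *GDF15*, a secreted stress-responsive factor of the TGF-beta family, was bright on all arrays, with intensities of 25355, 26599 and 17622. The log2 ratio of *GDF15* was 0.41 with siRNA #7 (spot-to-spot SD 0.14) and -0.21 with siRNA #8 (spot-to-spot SD 0.15). Between the siRNAs it was lower with siRNA #8, with a log2 ratio of -0.62 (spot-to-spot SD 0.15). *GDF15* is also a target of ATF4, the transcription factor of the integrated stress response, as is taken up with the other lists below.

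*MDM2* was the member that stood lowest with siRNA #7, and it was read by 4 probes. The intensity of the probe used was 87.5 under control siRNA, 42.9 under siRNA #7 and 76.3 under siRNA #8. Its log2 ratio was -0.68 with siRNA #7 (spot-to-spot SD 0.25) and 0.12 with siRNA #8 (spot-to-spot SD 0.26). The neighbouring spots had a median log2 deviation of -0.08 with siRNA #7 and of 0.34 with siRNA #8, and with the neighbours removed the ratio with siRNA #8 became negative. A second probe, at intensities of 38.4, 19.8 and 35.6, had log2 ratios of -0.61 and 0.21. The third, at 16.3, 8.90 and 11.1, had log2 ratios of -0.53 and -0.24. All 3 probes were lower with siRNA #7, and they gave both signs for siRNA #8. For the second and the third probe the spot-to-spot SD with siRNA #7 was 0.40, so neither ratio reached 2 SDs. The fourth probe was printed on 10 spots and was dim, with intensities of 14.4, 5.69 and 10.1. It was well above background on 10 spots under control siRNA, 0 under siRNA #7 and 8 under siRNA #8. The lowest signal of any probe called well above background with siRNA #7 was 6.75. With 6.75 in place of its own siRNA #7 signal, this probe was 1.68-fold lower with siRNA #7 than with control siRNA. In the same way siRNA #8 was 1.46-fold higher than siRNA #7. Neither fold is a strict bound, because a spot of this probe at 8.25 with siRNA #7 was not called well above background. Against control siRNA this probe was lower with siRNA #8 in 8 spots and higher in 2.

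**Figure D2:**
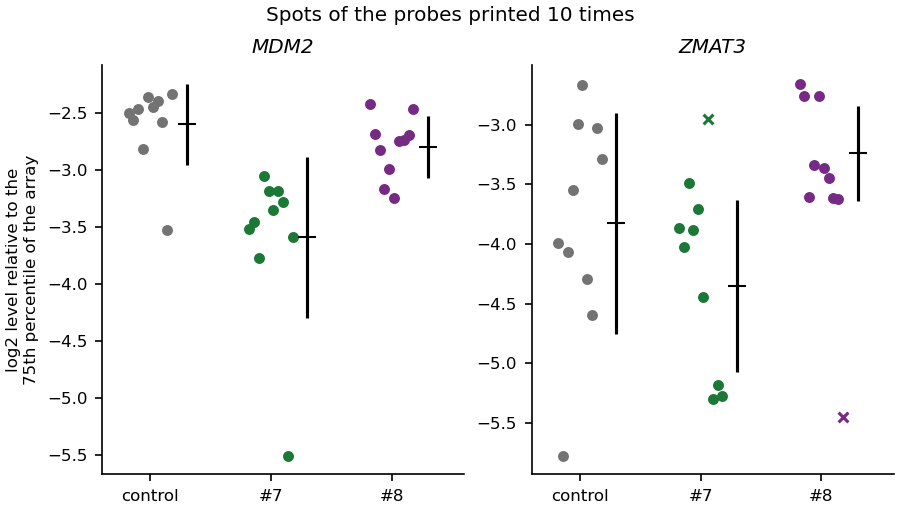
Level of each spot of the probes of *MDM2* and *ZMAT3* that were printed 10 times, as log2 intensity relative to the 75th percentile of the array, with spots left out as outliers drawn as crosses and the mean and SD of the other spots drawn as a black dash and bar. The mean of the *MDM2* spots is lowest with siRNA #7, and the spots of both probes overlap between all arrays. Spots of 1 array are technical repeats of 1 RNA sample.

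*BTG2*, an antiproliferative gene whose product recruits the deadenylation machinery to mRNA, showed the opposite order of the siRNAs. Its single probe read 553 under control siRNA, 491 under siRNA #7 and 1062 under siRNA #8. The array with siRNA #8 was apart from the other two, whose scaled levels differed by little more than 1 SD. The log2 ratio was 1.26 with siRNA #8 (spot-to-spot SD 0.16), a 2.39-fold higher level, and 0.17 with siRNA #7 (spot-to-spot SD 0.15). Against siRNA #7 the level with siRNA #8 was 2.12-fold higher, with a log2 ratio of 1.08 (spot-to-spot SD 0.15). Neighbouring spots had median log2 deviations of 0.06 and 0.09.

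*TP53INP1* and *SESN1* were also highest with siRNA #8, at smaller sizes. *TP53INP1*, which promotes p53 phosphorylation and autophagy, had intensities of 118, 101 and 139 on the control siRNA, siRNA #7 and siRNA #8 arrays. Its log2 ratio was 0.12 with siRNA #7 (spot-to-spot SD 0.16) and 0.55 with siRNA #8 (spot-to-spot SD 0.18). A second *TP53INP1* probe was well above background with siRNA #8 only, at intensities of 4.24, 5.16 and 7.83. The lowest signal of any probe called well above background under control siRNA was 6.13. Set against 6.13, its scaled level with siRNA #8 was 1.59-fold higher. This is not a strict bound, because 6.13 was the mean of another probe with 5 of 10 spots well above background. The spot-to-spot SD of the log2 ratio of this dim probe was 0.41. *SESN1*, a sestrin that restrains mTORC1 signaling, had intensities of 51.8, 44.9 and 58.8. The log2 ratio of *SESN1* was 0.14 with siRNA #7 (spot-to-spot SD 0.25) and 0.50 with siRNA #8 (spot-to-spot SD 0.26). Neither of its ratios reached 2 SDs.

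*ZMAT3*, a zinc finger RNA-binding protein that regulates splicing, could not be compared. Its 1 probe was printed on 10 spots and was well above background on 5 of them under control siRNA, 1 under siRNA #7 and 3 under siRNA #8. Its mean intensities were 6.13, 3.35 and 7.38. The first was itself the lowest signal called well above background on the control array. On the siRNA #7 and siRNA #8 arrays that lowest signal was 6.75 and 6.98. Its spots overlapped between all 3 arrays, and a difference of *ZMAT3* was not detectable at this signal.

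**Figure D3:**
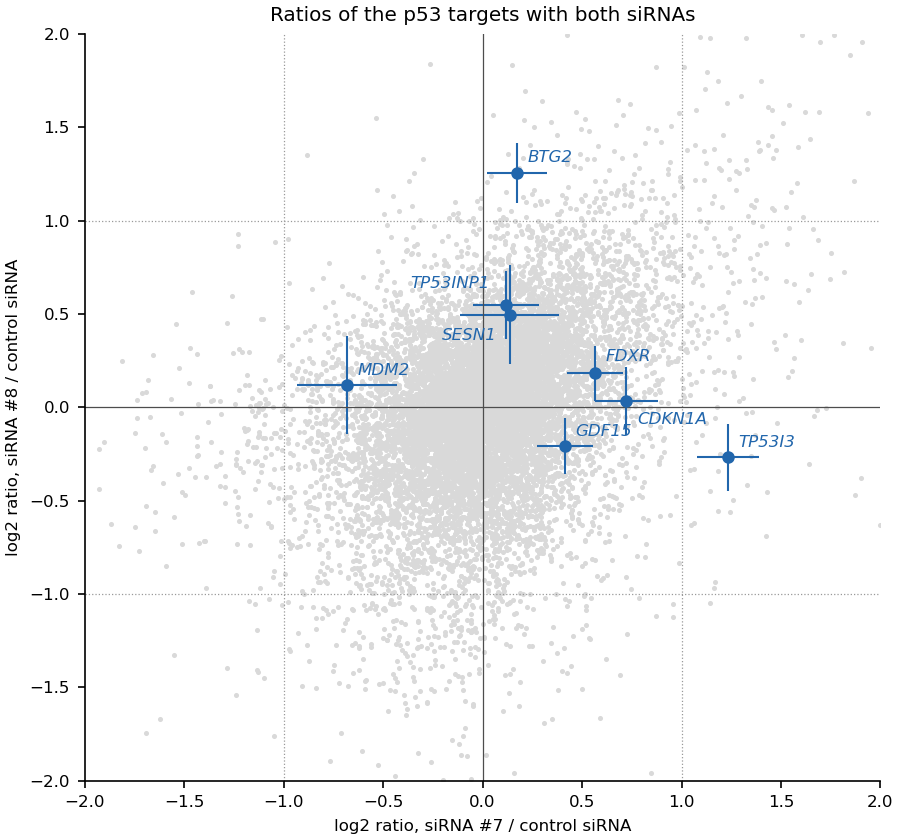
Log2 ratio to control siRNA with siRNA #7 (horizontal) and siRNA #8 (vertical) for the 8 p53 targets with a passing probe (blue) and all 12031 genes (grey), with bars of 1 spot-to-spot SD and dotted lines at 2-fold. *TP53I3*, *CDKN1A* and *FDXR* lie to the right near the horizontal line, *BTG2* lies high near the vertical line and *MDM2* lies to the left. Both ratios use the same control array, and 67 genes lie beyond the axes.

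Counted over the 8 measured targets, 1 was at least 2-fold higher with siRNA #7 (*TP53I3*), where 2.13% of all genes were, and 0 were at least 2-fold lower, where 1.66% of all genes were. With siRNA #8, 1 was at least 2-fold higher (*BTG2*), where 2.04% of all genes were, and 0 were at least 2-fold lower, against 2.86% of all genes. None was past 2-fold with both siRNAs, where 0.748% of all genes were higher and 0.158% lower. The ratio was above 0 for 7 of 8 with siRNA #7 and for 6 of 8 with siRNA #8, against 53.4% and 52.1% of all genes. The median log2 ratio of the targets was 0.29 with siRNA #7 and 0.15 with siRNA #8, against 0.03 and 0.02 over all genes. Past 2 spot-to-spot SDs lay 4 targets above and 1 below with siRNA #7, and 2 above and 0 below with siRNA #8, where 29.8% and 31.6% of all genes lay past 2 SDs in either direction. At a lower threshold of 1.5-fold, 2 were higher and 1 lower with siRNA #7, where 7.99% and 6.62% of all genes were, and 1 was higher and 0 lower with siRNA #8, where 8.11% and 9.85% were. These medians and counts describe 8 genes on 1 array each and were not tested.

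The targets differed most in the direct comparison of the siRNAs. From siRNA #7 to siRNA #8, *BTG2*, *MDM2*, *TP53INP1* and *SESN1* were higher and *TP53I3*, *CDKN1A*, *GDF15* and *FDXR* were lower, which is 4 in each direction, where 48.5% of all genes were above 0 and 51.5% below. Their median log2 ratio was -0.01, against -0.02 over all genes, but the ratios ran from -1.50 to 1.08. Past 2 spot-to-spot SDs lay 3 targets above and 4 below, where 37.1% of all genes lay past them. *BTG2* was the 1 target at least 2-fold higher with siRNA #8, where 2.24% of all genes were, and *TP53I3* the 1 at least 2-fold lower, where 3.42% were. At 1.5-fold, 2 were higher and 3 lower, where 8.79% and 11.7% of all genes were. In the order of all genes by this ratio, *TP53I3* stood at percentile 0.889, *CDKN1A* at 8.68, *GDF15* at 10.5, *FDXR* at 20.4, *SESN1* at 81.8, *TP53INP1* at 85.3, *MDM2* at 95.5 and *BTG2* at 98.3. The comparison does not use the control array.

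The smaller ratios to control siRNA lay within the shift that another scaling gives. Scaling the arrays to their E1A spike-in probes moved every gene by the same amount, -0.34 (siRNA #7) and -0.25 (siRNA #8), so that ratios between 0 and that amount turned below 0. These were *BTG2*, *SESN1* and *TP53INP1* with siRNA #7, and *CDKN1A*, *FDXR* and *MDM2* with siRNA #8. *BTG2* with siRNA #8 ranged from 1.004 to 1.30 over 9 alternatives, and *TP53I3* with siRNA #7 from 0.89 to 1.31. In the comparison of siRNA #8 with siRNA #7 none of the 8 targets changed sign under any of the 9. A shift common to all genes could not have turned one. Spike-in scaling, the largest such shift, moved this comparison by 0.09, and the ratio closest to no difference was 0.36, of *SESN1*. Not every alternative could move a ratio. Dropping the filter on dim probes left each of the 8 as it was, as did the mean of passing probes for a gene with 1 passing probe.

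**Figure D4:**
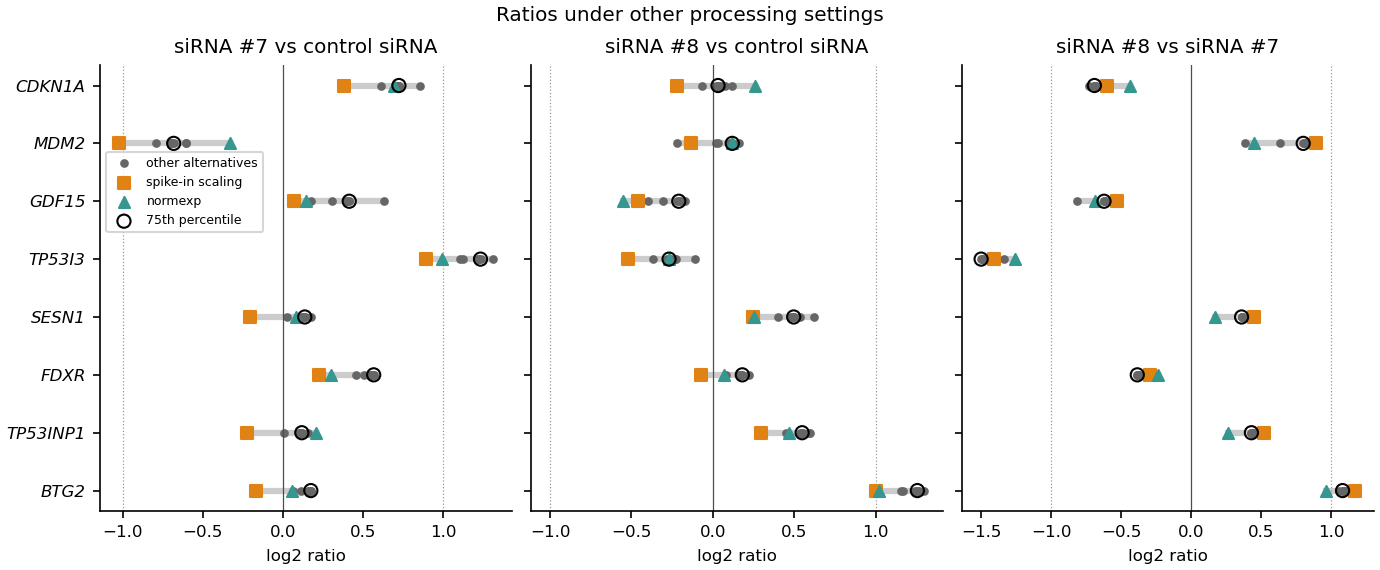
Log2 ratios of the 8 p53 targets in the 3 comparisons under the 75th percentile scaling (black circles), scaling to the spike-in controls (orange squares), normexp background correction (green triangles) and 7 other alternatives (grey points), with grey bars from the lowest to the highest alternative. Spike-in scaling moves every ratio to control siRNA down, and in the right panel each target keeps its side of 0.

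In a joint fit of both siRNA arrays as 1 group of 2 against the control array with limma, 0 of the targets had an adjusted p under 0.05. The adjusted p was 0.99971 for each target, and 0.011% of all 18121 probes were called, against 3.78% at an unadjusted p under 0.05. *BTG2* had a mean log2 ratio of 0.71 (SE 0.48) over both siRNAs. Its ratio was 1.26 with siRNA #8 and only 0.17 with siRNA #7 (spot-to-spot SD 0.15). This fit takes the lone control array to vary like the siRNA arrays and counts siRNA #7 and siRNA #8 as repeats, so a target that differs between them is carried as spread.

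The regulators of p53 were mixed. Of 16 listed genes 14 were measured, at median log2 ratios of 0.05 (siRNA #7) and -0.09 (siRNA #8), and 7 and 4 of them were above 0, where 53.4% and 52.1% of all genes were. One was at least 2-fold lower with each siRNA, where 1.66% and 2.86% of all genes were, and with neighbouring spots removed or under normexp 0 were. With siRNA #7 the count was 2 under median scaling, quantile normalization and spike-in scaling. With siRNA #8 it was 2 under spike-in scaling and 0 as the mean of passing probes. The sign of the first median turned under quantile normalization and under scaling to the median or the spike-in controls. *ATR*, the kinase that signals replication stress to p53, had intensities of 301, 115 and 132 on the control siRNA, siRNA #7 and siRNA #8 arrays. Its log2 ratios were -1.05 and -0.88 (spot-to-spot SDs 0.16 and 0.18), the lowest of the list with siRNA #7. *HIPK2*, a kinase that phosphorylates p53, had intensities of 44.1, 31.9 and 13.1, with log2 ratios of -0.12 and -1.44 (spot-to-spot SDs 0.33 and 0.34). Taken as the mean of its passing probes, the ratio of *HIPK2* with siRNA #7 turned positive, and over the alternatives that with siRNA #8 was as small as -0.40. The *ATR* ratios were as small as -0.75 and -0.28. *RPL5*, a ribosomal protein that binds and inhibits MDM2, had intensities of 23013, 9758 and 14852, with log2 ratios of -0.89 and -0.32 (spot-to-spot SDs 0.14 and 0.15), which over the alternatives were as small as -0.20 and -0.07.

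Further direct targets in growth arrest, metabolism and repair moved little as a group. Of 20 listed, 17 were measured, and their median log2 ratios were 0.06 under siRNA #7 and 0.07 under siRNA #8. In either direction 0 were past 2-fold with either siRNA. Of all genes 2.13% (siRNA #7) and 2.04% (siRNA #8) were higher, and 1.66% and 2.86% lower. With neighbouring spots removed, or with no filter on dim probes, 1 was past 2-fold higher with siRNA #7. Under spike-in scaling 1 was past 2-fold lower with siRNA #8. Both medians turned below 0 when each array was scaled to its median or its spike-in controls, and the second also under normexp background correction. *SESN2*, the sestrin that also belongs to the ATF4 response, had intensities of 65.0, 92.3 and 75.4 and log2 ratios of 0.85 and 0.53 (spot-to-spot SDs 0.23 and 0.26), from 0.51 to 1.05 and from 0.28 to 0.57 over the alternatives. *TRIAP1*, a mitochondrial survival factor, had intensities of 674, 757 and 813 and log2 ratios of 0.51 and 0.59, which over the alternatives were as small as 0.13 and 0.14, under 1 spot-to-spot SD. *DDB2*, the damage recognition factor of nucleotide excision repair, was at 1872, 1253 and 856, with log2 ratios of -0.23 and -0.81. Direct targets of p53 thus stood on both sides of control siRNA with each siRNA.

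Among 14 apoptosis targets, 11 were measured, at median log2 ratios of 0.09 (siRNA #7) and -0.06 (siRNA #8). The first turned below 0 under median and spike-in scaling and under normexp, and the second above 0 as the mean of all passing probes. *BBC3*, which encodes the BH3-only protein PUMA, was the 1 gene of the list past 2-fold, with siRNA #8, where 2.04% of all genes were higher. Its intensities were 1072, 1296 and 1998, with log2 ratios of 0.62 and 1.21 for siRNA #7 and siRNA #8 (spot-to-spot SDs 0.15 and 0.16). Over the alternatives *BBC3* ranged from 0.87 to 1.25 with siRNA #8 and stayed above 0 with both siRNAs. *FAS*, the death receptor, was at 64.9, 34.1 and 48.2, with log2 ratios of -0.58 and -0.11, as small as -0.20 and -0.01 over the alternatives. *TNFRSF10A*, a TRAIL receptor, was at 225, 156 and 119, with log2 ratios of -0.18 and -0.60.

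Cell-cycle genes on the list of those repressed through p21 and DREAM stood lower with siRNA #8 than with control siRNA. All 16 listed genes were measured, and with siRNA #8 16 were below 0 with a median log2 ratio of -0.47, where 47.9% of all genes were below 0. With siRNA #7, 10 of 16 were below 0 and the median was -0.06, where 46.6% of all genes were below 0. That count depended on the setting, with 13 below 0 under median scaling, 13 under normexp and 15 under spike-in scaling. The list medians were then -0.17, -0.18 and -0.40, where those of all genes were -0.08, -0.01 and -0.31. The part of p21 in these ratios was not tested. The 16 genes stayed below 0 with siRNA #8 under all 9 alternatives, with medians from -0.72 to -0.43. Between the siRNAs 14 of 16 were lower with siRNA #8, where 51.5% of all genes were. *CCNA2*, cyclin A2, had intensities of 442, 337 and 169 and log2 ratios of -0.05 and -1.07 (spot-to-spot SDs 0.050 and 0.057). *BUB1*, the spindle checkpoint kinase, was at 740, 474 and 368, with log2 ratios of -0.30 and -0.69. *MCM5*, a subunit of the replicative helicase, was at 2033, 1306 and 1153, with log2 ratios of -0.29 and -0.50. Co-regulated genes of 1 list on 1 array are not independent observations, and the count was not tested.

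Of the other cyclin-dependent kinase inhibitors, 5 of 6 were below 0 with siRNA #8, where 47.9% of all genes were. Among the 5, *CDKN2A* and *CDKN1B* were close to 0, at -0.004 and -0.01, and *CDKN1C* was above 0, at 0.21. These genes were named after their values were seen. With the 75th percentile taken over detected probes 3 of 6 were below 0, and under spike-in scaling 6 were. Of 7 listed 6 were measured, at median log2 ratios of 0.01 (siRNA #7) and -0.43 (siRNA #8), and 2 were at least 2-fold lower with siRNA #8, where 2.86% of all genes were. That count was 0 with neighbouring spots removed, 1 under normexp or as the mean of passing probes, and 3 under spike-in scaling. *CDKN2C*, p18, had intensities of 142, 105 and 54.7 and log2 ratios of -0.09 and -1.06. *CDKN2D*, p19, was at 803, 700 and 358, with log2 ratios of 0.15 and -0.85. *CDKN3*, a phosphatase of CDK2 that is itself periodic in the cell cycle, was at 940, 525 and 359, with log2 ratios of -0.50 and -1.07. The small ratios of *CDKN2C* and *CDKN2D* with siRNA #7 changed sign between settings. With siRNA #8 *CDKN2C* ranged from -1.31 to -0.46 and *CDKN2D* from -1.10 to -0.70.

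The list of ATF4 and its targets was measured because *GDF15*, and *SESN2* among the further targets, respond to ATF4 as well as to p53. Of 10 genes 9 were measured, and their median log2 ratios were 0.56 under siRNA #7 and -0.13 under siRNA #8. With siRNA #7 8 of 9 were above 0 and 2 were at least 2-fold higher, *CHAC1* and *ASNS*, where 53.4% of all genes were above 0 and 2.13% at least 2-fold higher. These counts were 6 and 1 under median scaling and 5 and 1 under spike-in scaling. *CHAC1*, a glutathione-degrading enzyme, had intensities of 152, 488 and 112 and log2 ratios of 2.02 and -0.13 (spot-to-spot SDs 0.16 and 0.18). *TRIB3*, a pseudokinase, was at 2100, 2956 and 2176, with log2 ratios of 0.84 and 0.37, and the second turned below 0 with neighbouring spots removed. *ASNS*, asparagine synthetase, had log2 ratios of 1.05 and -0.63. *PSAT1*, a serine synthesis enzyme, had the reverse order, with -0.78 and 0.14 (spot-to-spot SDs 0.14 and 0.15), and was the 1 gene of the list below 0 with siRNA #7. Its ratio with siRNA #8 turned below 0 under spike-in scaling and normexp. *ASNS*, *PSAT1*, *ATF3*, *ATF4*, *DDIT3* and *DDIT4* were named here after their values were seen. *GDF15* was highest with siRNA #7 and lowest with siRNA #8. In this list *CHAC1*, *ASNS*, *ATF3*, *DDIT3* and *DDIT4* had that order, with *DDIT3* and *DDIT4* at only 0.05 with siRNA #7. *ATF4*, *TRIB3* and *SESN2* were lowest under control siRNA, and *PSAT1* with siRNA #7. *TP53I3*, which is not on the list, had the order of *GDF15* by the probe used. How many of all genes have this order was not counted, and the part of ATF4 in the *GDF15* ratio was not tested. Under spike-in scaling the median of the list with siRNA #7 was 0.22, where the median of all genes was -0.31.

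**Figure D5:**
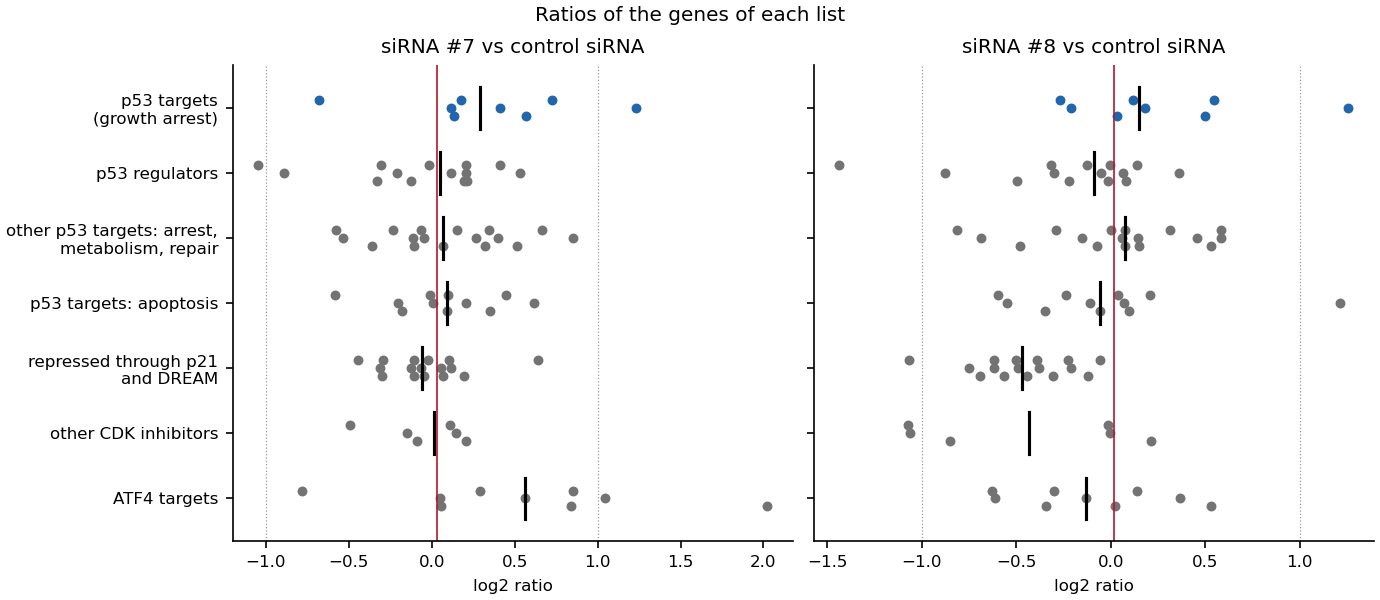
Log2 ratio to control siRNA of each measured gene of the 9 p53 targets (blue) and of the other gene lists (grey) with siRNA #7 (left) and siRNA #8 (right). Black bars are list medians, the red line is the median of all 12031 genes and dotted lines mark 2-fold. All 16 genes of the list repressed through p21 and DREAM lie left of 0 with siRNA #8, and 8 of 9 genes of the ATF4 list lie right of 0 with siRNA #7.

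Genes with a pair of ratios most like that of *CDKN1A* were *COL11A2*, *SLC1A5*, *DDX11L16*, *ENTPD4* and *SNORA71C*, at Euclidean distances of 0.024 to 0.033 on the log2 scale over the 2 ratios. Within the error of the *CDKN1A* ratios, a radius of 0.24, lay 264 of the 12031 genes, so the order among these neighbours is not resolved. Nearest to *BTG2* were *MYLK-AS1*, *ZCCHC24*, *ZNF177*, *SLC25A6* and *CDC26*, at 0.030 to 0.13, and 17 genes lay within its radius of 0.22. None of the other 7 measured targets was among the 5 genes nearest to either.

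Each array held 62976 spots, with 0 saturated spots, and 19067 to 20471 probes were well above background, most with control siRNA. The 75th percentile of intensity was 86.9 under control siRNA, 68.5 under siRNA #7 and 69.8 under siRNA #8. Of 8 markers of colon epithelium 6 were well above background on all arrays, among them *EPCAM*, *CDX2* and the keratins, and *VIL1* and *LGALS4* were not. Of 7 markers of other cell types *COL1A1* and *DES* were well above background on all arrays, while *PTPRC*, *CD3E*, *PECAM1* and *GFAP* were on none and *VIM* was on 1.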

How the data were processed

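Gene expression was measured in HCT116 cells on 3 one-color Agilent arrays, 1 per condition. The authors scanned the arrays, and the deposited intensity of each spot came from Agilent Feature Extraction (11.5.1.1 in the file headers) after background subtraction and without normalization across arrays. A further table, deposited as log2 values centered per probe on the median of the arrays, served as an alternative. The methods name a percentile filter and flags but no normalization.

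From the intensities, control spots and outlier spots were left out, spots of a probe were averaged, and log2 levels minus the 75th percentile of the array were taken (Python 3.11.15, numpy 2.4.6, pandas 2.3.3). A probe passed if it was well above background on at least 50% of its spots on all 3 arrays and at or above the 20th percentile on at least 2, which left 18121 probes. Accessions were matched without versions to RefSeq (GRCh38.p14), giving names to 30000 of 50593 probes, and the brightest passing probe stood for each of 12031 genes. The spot-to-spot SD, pooled in 6 ranges of signal, came from 604 to 620 probes printed 10 times and was 0.18, 0.15 and 0.17 (log2) on the control siRNA, siRNA #7 and siRNA #8 arrays. It was divided by the root of the number of spots and combined over both arrays of a ratio. The number of arrays limits the precision. A bound sets the brighter mean against the higher of the dim probe's own signal and the lowest signal well above background on that array.

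The targets and lists were chosen with earlier results of these data known. Besides all targets, the genes named were those past 2-fold with both siRNAs and the 3 of each other list with the largest mean ratio, and the 5 genes nearest to *CDKN1A* and to *BTG2*. One gene of the regulator list is not reported here. Ratios of single genes carry no p-value. Alternatives were other scalings, normexp (offset 50), the deposited log2 values, removal of neighbouring spots within 3 rows and 3 columns, other probe choices, 1.5-fold, and a limma fit (3.58.1, R 4.3.3) that joined the siRNA arrays into 1 group. The full p53 site and the settings of the other lists were added after seeing the data. The steps were tested on simulated data. Arrays of cells overexpressing *HOXA5* short RNA were not analysed here.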

Additional observations from a re-analysis of the deposited data

How the results depend on the processing

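Scaling, background correction and the removal of neighbouring spots each moved some results. The median log2 ratio of the p53 targets with siRNA #7, 0.29 at the 75th percentile, was -0.049 under spike-in scaling, and that with siRNA #8, 0.15, was -0.10, while the medians of all genes went to -0.31 and -0.23. With no filter on dim probes, which adds *ZMAT3*, the median between siRNA #8 and siRNA #7 was 0.36. Under normexp the number of targets past 2-fold was 0 with siRNA #7 and 1 between the siRNAs, in place of 1 and 2. At 1.5-fold it was 3 with siRNA #7 and 5 between the siRNAs. The number with siRNA #8 stayed at 1 under each of these. *MDM2* with siRNA #7 ranged from -1.02 to -0.33, *CDKN1A* from 0.38 to 0.85 and *GDF15* from 0.07 to 0.63, without a change of sign. Normexp gave 0.26 for *CDKN1A*, -0.55 for *GDF15* and 1.02 for *BTG2* with siRNA #8, and removing neighbouring spots gave -0.22 for *MDM2*. *TP53I3* with siRNA #7 was past 2-fold under 7 of 9 alternatives, and *BTG2* with siRNA #8 under 9 of 9. Dropping the filter on dim probes could not change either ratio, and the mean of passing probes could not change that of *BTG2*, which has 1 probe. No paired analysis was possible because there is 1 array per condition. Spots cover the scanning of 1 array, so the spread between cultures is unknown for every value.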
